A study of Mus musculus with 6 samples.

Results

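The muscle-type acetylcholine receptor and the complex that anchors it beneath the motor nerve ending were followed through 7 genes: Chrna1, Chrnb1, Chrnd, Chrng, Musk, Rapsn and Dok7. They were chosen by symbol from an expression table of 23930 amplicons, each amplicon being a short amplified stretch that stands for its gene. All 7 were found, and all 7 passed the filter of the test, which kept 12846 amplicons whose mean was 1 RPM or more. RPM is the number of reads scaled by the library total, so that every library sums to the same value. The shaft of the humerus, the upper arm bone, was sampled from mouse embryos at stage E16.5. The KO group (3 samples) was Prrx1Cre; Stat3C/C, with both copies of the transcription factor gene Stat3 conditional and the Cre driver present. The Ctrl group (3 samples) was Stat3C/+, with a single conditional copy and no driver named, although the titles call it WT. The stated purpose was to find genes expressed differently between these long bones. Prrx1Cre is active in limb bud mesenchyme, the source of limb bone, cartilage and tendon, whereas limb muscle fibres arise from cells that migrate in from the somites.

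Fetal muscle carries a receptor made of alpha, beta, delta and gamma subunits, a cation channel that opens when the motor nerve releases acetylcholine. After birth the gamma subunit is replaced by epsilon. Agrin from the nerve binds LRP4 on the muscle, which activates the receptor tyrosine kinase MuSK. DOK7 binds MuSK inside the cell and activates it further, and rapsyn, the product of Rapsn, holds the receptors together in clusters. In uninnervated or inactive muscle the receptor genes are transcribed along the whole fibre.

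Depth was 11809106, 9126493 and 9784046 reads in KO replicates 1 to 3 and 11640697, 13376550 and 12175801 reads in Ctrl replicates 1 to 3. The amplicon of Stat3 gave 193 ± 20.1 RPM in KO and 208 ± 5.82 RPM in Ctrl samples (SD, n = 3 each, limma adjusted p = 0.380). No source used here places it inside or outside the deleted exons, so it checks nothing about the labels. The shaft samples held bone, cartilage and muscle RNA. The summed RPM of 7 osteoblast markers was 36348 to 40953 in KO and 40921 to 45768 in Ctrl samples, that of 6 chondrocyte markers was 326 to 363 in KO and 400.1 to 420.3 in Ctrl samples, and that of 23 skeletal muscle fibre markers was 35004 to 37184 in KO and 38077 to 41658 in Ctrl samples. Most of the osteoblast sum came from the 2 collagen genes of that list, whose differences between the groups did not pass (limma adjusted p = 0.698 and 0.159). The highest gene in the muscle fibre sum was Mylpf, at 11352 ± 1200 RPM in KO and 12626 ± 1990 RPM in Ctrl samples (SD, n = 3 each). Its groups overlapped (limma adjusted p = 0.302). Tnnt3 and Acta1, the next highest, did not pass either (limma adjusted p = 0.524 and 0.224). In a tissue mixture of this kind, fewer muscle fibres and less RNA per fibre cannot be told apart. The labels name no batch and do not say whether replicates were separate embryos, so a p-value here reflects only how these samples vary, and that variation may be technical.

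None of the 7 genes passed the test over all genes (limma on log2(RPM + 1), Benjamini-Hochberg adjusted p under 0.05), where 16.7% of the tested amplicons did. At an unadjusted p under 0.05 there were 3 of the 7, Chrna1, Chrng and Dok7, against 31.3% of all tested amplicons. On the whole reads recovered from the table, edgeR's quasi-likelihood test and DESeq2 also called 0 of the 7 after adjustment, where they called 15.4% and 14.4% of all amplicons. At an unadjusted p under 0.05 edgeR gave 2 of the 7 (29.6% of all amplicons) and DESeq2 gave 1 of the 7 (25.9%). The median log2 fold change of the 7 was -0.05, beside -0.06 for all tested amplicons. KO and Ctrl values did not overlap for 2 of the 7, Chrng and Dok7, both lower in KO, where 21.9% of tested amplicons were lower without overlap and 33.8% did not overlap in either direction.

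**Figure D1:**
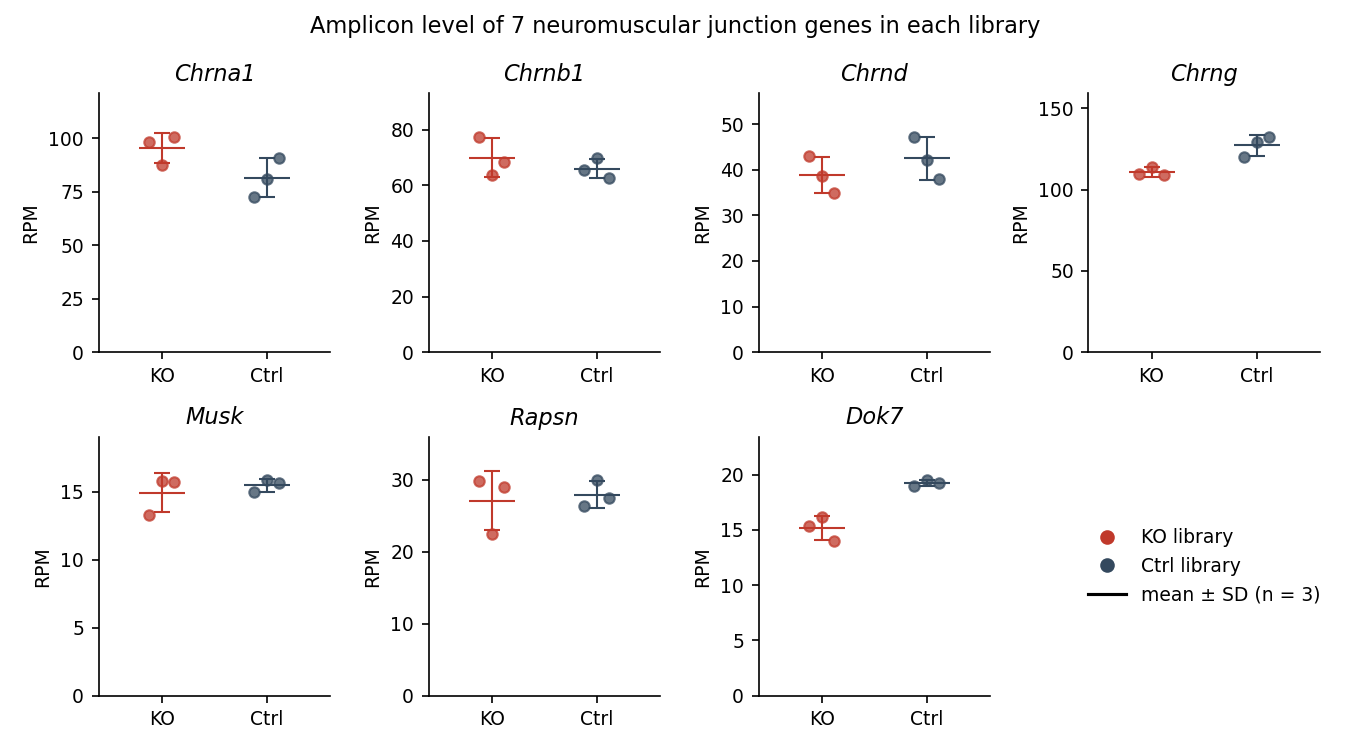
Amplicon level in RPM (linear axis from 0) of each of the 7 genes in every library, KO at left and Ctrl at right, with the mean and SD of 3 libraries. Chrng and Dok7 lay lower in every KO library than in any Ctrl library, and the groups overlapped for the other 5 genes.

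Chrna1 encodes the alpha subunit, which carries most of the acetylcholine binding site. The gene (ENSMUSG00000027107.3) lies on chromosome 2 from 73563215 to 73580338 on the minus strand (GRCm38, as are all positions here, matched by symbol). Its amplicon read 98.1, 87.5 and 100.7 RPM in KO replicates 1 to 3, against 72.6, 81.0 and 90.8 RPM in Ctrl replicates 1 to 3. The highest Ctrl library lay above the lowest KO library, so the groups overlapped. The means were 95.4 ± 6.95 RPM in KO and 81.5 ± 9.13 RPM in Ctrl samples (SD, n = 3 each), and the log2 fold change was 0.23 ± 0.09 (SE, 95% interval 0.03 to 0.42), which did not pass (limma adjusted p = 0.0992). It passed when Ctrl replicate 3 was left out (0.31, limma adjusted p = 0.0387), and its adjusted p was 0.201 to 0.368 without KO replicate 1, KO replicate 3, Ctrl replicate 1 or Ctrl replicate 2 and 0.0914 without KO replicate 2.

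Chrng encodes the gamma subunit of the fetal receptor. It lies on chromosome 1 from 87204657 to 87212694 on the plus strand (ENSMUSG00000026253.14), 4586 bases after the end of its neighbour Chrnd. The amplicon read 109, 114 and 109 RPM in KO replicates 1 to 3, against 119.9, 129 and 133 RPM in Ctrl replicates 1 to 3. All 3 KO libraries were below all 3 Ctrl libraries. The means were 111 ± 3.0 RPM in KO and 127 ± 6.52 RPM in Ctrl samples (SD, n = 3 each). The log2 fold change was -0.20 ± 0.08 (SE, 95% interval -0.37 to -0.03) and did not pass (limma adjusted p = 0.0982). Chrnd, for the delta subunit (ENSMUSG00000026251.13, chromosome 1, 87190607 to 87200070, plus strand), read 42.9, 38.6 and 34.96 RPM in KO and 47.2, 42.2 and 37.9 RPM in Ctrl replicates 1 to 3. These overlapped widely, with a log2 fold change of -0.13 ± 0.11 (SE, 95% interval -0.35 to 0.10, limma adjusted p = 0.466).

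Chrnb1, for the beta subunit, lies on chromosome 11 from 69784036 to 69795943 on the minus strand (ENSMUSG00000041189.9). It read 77.5, 63.8 and 68.4 RPM in KO and 65.4, 69.7 and 62.7 RPM in Ctrl replicates 1 to 3. The groups overlapped, and the log2 fold change was 0.08 ± 0.09 (SE, 95% interval -0.12 to 0.28, limma adjusted p = 0.611).

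Promoter windows from 250 bases before to 50 bases after the start of the gene (RefSeq, GRCm38.p6) are in the sequence table used for 5 of the 7 genes, Dok7 with 2 starts. Chrnd and Rapsn are not among them. The windows of 3 receptor subunits and of Dok7, with every match to the E-box CANNTG in capitals, are shown because myogenic factors such as MyoD and myogenin act on receptor genes through E-boxes. The Chrna1 window is chr2:73580289-73580588 (minus strand), that of Chrng chr1:87205561-87205860 (plus strand), that of Chrnb1 chr11:69795888-69796187 (minus strand) and that of Dok7, at its first start, chr5:35056516-35056815 (plus strand). All are written 5′ to 3′. The Chrng window is set at the RefSeq start at 87205811, which lies 1154 bases inside the GENCODE gene printed above, at the start of another GENCODE transcript of the gene that runs to 87212694. The other windows shown are set at starts within 6 bases of the GENCODE gene start.
Chrna1: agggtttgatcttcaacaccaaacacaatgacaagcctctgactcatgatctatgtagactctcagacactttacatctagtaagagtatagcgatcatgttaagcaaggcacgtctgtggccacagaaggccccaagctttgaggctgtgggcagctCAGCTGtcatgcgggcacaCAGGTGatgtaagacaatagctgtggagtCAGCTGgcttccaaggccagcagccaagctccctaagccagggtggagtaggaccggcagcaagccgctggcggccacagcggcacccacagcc
Chrng: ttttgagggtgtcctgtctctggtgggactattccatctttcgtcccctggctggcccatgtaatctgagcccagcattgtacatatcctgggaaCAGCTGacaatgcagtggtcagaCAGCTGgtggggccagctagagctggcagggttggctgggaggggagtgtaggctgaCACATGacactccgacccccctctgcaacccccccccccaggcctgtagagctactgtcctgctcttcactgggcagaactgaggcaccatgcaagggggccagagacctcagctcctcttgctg
Chrnb1: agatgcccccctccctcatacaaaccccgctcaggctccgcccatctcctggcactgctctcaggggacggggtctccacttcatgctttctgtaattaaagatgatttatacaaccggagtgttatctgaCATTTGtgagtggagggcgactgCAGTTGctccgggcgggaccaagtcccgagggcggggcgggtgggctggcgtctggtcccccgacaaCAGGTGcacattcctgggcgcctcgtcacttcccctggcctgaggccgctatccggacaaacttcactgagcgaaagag
Dok7: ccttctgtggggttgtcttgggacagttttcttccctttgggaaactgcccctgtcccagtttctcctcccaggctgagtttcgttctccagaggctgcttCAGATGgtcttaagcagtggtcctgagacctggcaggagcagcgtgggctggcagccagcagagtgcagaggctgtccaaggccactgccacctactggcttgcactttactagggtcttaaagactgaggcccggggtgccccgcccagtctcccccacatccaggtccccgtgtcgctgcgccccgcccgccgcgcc

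The myogenic E-box CAGCTG, which is its own reverse complement, occurred 2 times in the Chrna1 window, starting 92 and 44 bases before the RefSeq start, and 2 times in the Chrng window, 155 and 132 bases before it. It occurred 1 time in the Musk window, 68 bases before the start, and did not occur in those of Chrnb1 and Dok7. Of all 32851 windows in the table, 16.3% held CAGCTG at least 1 time and 1.9% at least 2 times, and 72.3% held an E-box of any kind. The subunit genes with 2 copies had opposite signs of difference, higher in KO for Chrna1 and lower in KO for Chrng, though neither passed the test. The N-box CCGGAA, which ETS factors bind in genes active at the synapse, and the STAT motif TTCNNNGAA were searched on both strands, and neither was found in any of the 6 windows of the 5 genes. They occurred in 14.9% and 8.3% of all windows.

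Dok7, for the cytoplasmic activator of MuSK, had the fold change farthest from 0 among the 7 on the deposited scale, whereas Chrna1 was farther from 0 with median-of-ratios, quantile or muscle fibre list scaling and with DESeq2. It lies on chromosome 5 from 35056766 to 35087839 on the plus strand (ENSMUSG00000044716.12). The amplicon read 15.3, 16.2 and 14.0 RPM in KO replicates 1 to 3, against 18.99, 19.5 and 19.2 RPM in Ctrl replicates 1 to 3. Every KO library lay below every Ctrl library. The means were 15.2 ± 1.11 RPM in KO and 19.2 ± 0.264 RPM in Ctrl samples (SD, n = 3 each), and the log2 fold change was -0.32 ± 0.12 (SE, 95% interval -0.58 to -0.07), which missed the threshold (limma adjusted p = 0.0699). The numbers of reads behind these values were 181, 148 and 137 in KO and 221, 261 and 234 in Ctrl samples.

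Musk, for the kinase itself (ENSMUSG00000057280.15, chromosome 4, 58285960 to 58374303, plus strand), read 13.3, 15.8 and 15.7 RPM in KO and 14.9, 15.8 and 15.6 RPM in Ctrl replicates 1 to 3. The groups overlapped, with a log2 fold change of -0.05 ± 0.13 (SE, 95% interval -0.32 to 0.21, limma adjusted p = 0.830). Rapsn, for the clustering protein rapsyn (ENSMUSG00000002104.11, chromosome 2, 91035620 to 91045729, plus strand), read 29.9, 22.5 and 29.03 RPM in KO and 26.4, 29.98 and 27.5 RPM in Ctrl replicates 1 to 3. Its lowest value was KO replicate 2, and its log2 fold change was -0.05 ± 0.12 (SE, 95% interval -0.30 to 0.20, limma adjusted p = 0.819). The sign for both genes turned positive with median-of-ratios or quantile scaling, with limma's adjusted p at least 0.843 there.

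The 4 subunits share a receptor, so their amplicons were also set against each other within each library, which does not depend on the library scaling. This comparison was added after the values were seen. Amplicons may differ in efficiency, so the level of such a ratio is not a subunit ratio, and only its difference between groups is read. The log2 ratio of Chrna1 to Chrng was -0.16, -0.38 and -0.11 in KO replicates 1 to 3, against -0.72, -0.67 and -0.55 in Ctrl replicates 1 to 3. The groups did not overlap, and the difference of the means was 0.43 (exact two-sided permutation test, p = 0.1, the smallest that 3 against 3 can give, and 0.3 adjusted over 6 ratios). The ratio of Chrnb1 to Chrng was -0.67 ± 0.17 in KO and -0.95 ± 0.11 in Ctrl samples (SD, n = 3 each), also without overlap (exact permutation test, p = 0.1, adjusted 0.3). For Chrnd to Chrng the difference was 0.07 (exact permutation test, p = 0.8), and the other 3 ratios had an exact p of 0.2 or 0.3.

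**Figure D2:**
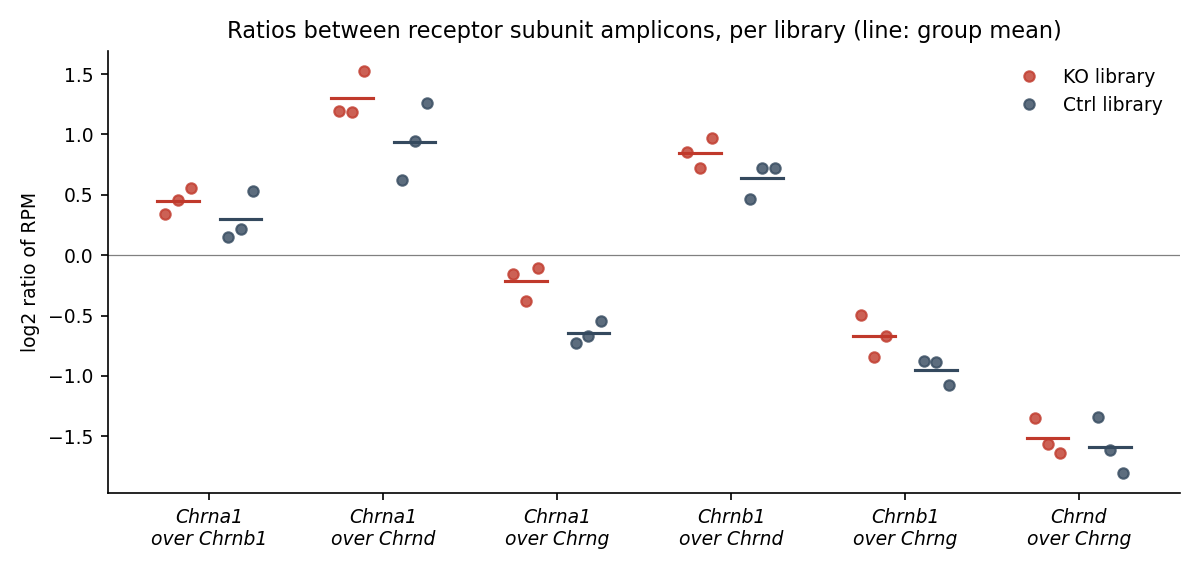
Log2 ratio of the RPM of each pair of receptor subunit amplicons in every library (vertical axis), KO points left of Ctrl points, with a line at each group mean. Chrna1 over Chrng lay between -0.38 and -0.11 in KO and between -0.72 and -0.55 in Ctrl libraries, and Chrnd over Chrng overlapped between the groups.

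Skeletal muscle fibre genes fell in part in the same libraries. Of 23 measured members of this list, 9 were lower and 1 higher in KO (limma, adjusted p under 0.05), and 13 did not pass, with 11.0% of all tested amplicons lower and 5.71% higher. The median of the list was -0.16. The count of 10 called members was 6 with no filter on low values and 4 without limma's trend, all lower in KO, and with quantile scaling 10 were lower and none higher. The giant sarcomere protein gene Ttn was at -0.56 ± 0.08, the Z-disc gene Actn2 at -0.43 ± 0.07, the calcium release channel gene Ryr1 at -0.51 ± 0.09, the actin-binding protein gene Xirp2 at -0.57 ± 0.12, the Z-disc gene Myot at -0.37 ± 0.08 and the embryonic myosin gene Myh3 at -0.31 ± 0.07 (log2 fold change ± SE). Myl1, Des and Atp2a1 were the other lower members, and the higher one was the slow troponin gene Tnni1 at 0.25, all 4 named after their values were seen. Des, Atp2a1 and Tnni1 kept their sign without each library, but their calls were lost when any 1 of several libraries was left out. Limma adjusted p was 0.169, 0.101, 0.208 and 0.0574 for Des without KO replicate 2, KO replicate 3, Ctrl replicate 2 or Ctrl replicate 3. It was 0.0596, 0.0699, 0.0641 and 0.127 for Atp2a1 without KO replicate 1, KO replicate 3, Ctrl replicate 1 or Ctrl replicate 2. It was 0.0692, 0.0734 and 0.0683 for Tnni1 without KO replicate 2, Ctrl replicate 1 or Ctrl replicate 2. With TMM or median-of-ratios scaling, edgeR or DESeq2, Des and Atp2a1 had adjusted p of 0.0842 to 0.182. The actin gene Acta1 (-0.13, limma adjusted p = 0.224) and the creatine kinase gene Ckm (-0.06, limma adjusted p = 0.640) did not pass. The list's mean on the log2(RPM + 1) scale was 9.16, 9.15 and 9.14 in KO replicates 1 to 3, against 9.31, 9.32 and 9.35 in Ctrl replicates 1 to 3, so each KO library was below each Ctrl library, by 0.18 between the means.

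When each library was set to an equal mean of the muscle fibre list and the fit repeated over all genes, Chrna1 was the 1 gene of the 7 that passed, while 21.3% of all amplicons did and 18.4% were higher in KO. Relative to muscle fibre genes Chrna1 was higher in KO by 0.40 ± 0.09 on the log2 scale (SE, 95% interval 0.21 to 0.60, limma adjusted p = 0.00323). On this scale the median of all amplicons stood at 0.11. The call held without each library in turn, with limma adjusted p between 0.00162 and 0.0233. Chrnb1 followed at 0.26 ± 0.10 (SE, 95% interval 0.06 to 0.45) and missed the threshold (limma adjusted p = 0.0592). The intervals of the other 5 genes covered 0 on this scale: Chrng was at -0.02, Chrnd at 0.05, Musk at 0.12, Rapsn at 0.13 and Dok7 at -0.15. This scaling adds 0.18 to the log2 fold change of every gene, so every value moves up by construction, and that shift is no result about any of the 7. The same shift took Chrna1 from 0.23, which did not pass (limma adjusted p = 0.0992), to 0.40. Over all genes the share called higher in KO was 5.71% before it. Each fit without 1 library holds such a shift too, so this call of Chrna1 is read only relative to the list. Without this scaling Chrna1 passed with median-of-ratios scaling (limma adjusted p = 0.0468) and without Ctrl replicate 3 (limma adjusted p = 0.0387). It did not pass with TMM scaling (limma adjusted p = 0.0563), edgeR (adjusted p = 0.0526) or DESeq2 (adjusted p = 0.0517). Whether the muscle content of the samples has a part in the values of the 7 genes was not tested.

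**Figure D3:**
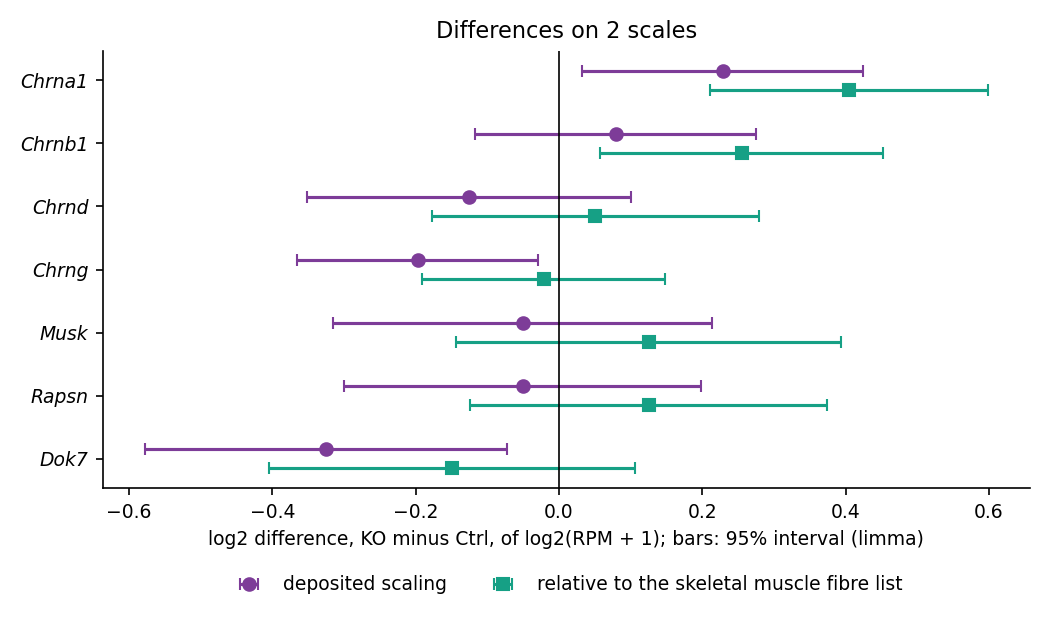
Log2 difference, KO minus Ctrl, of log2(RPM + 1) for each of the 7 genes with its 95% interval from limma, on the deposited scaling (circles) and relative to the mean of 23 skeletal muscle fibre genes (squares). Chrna1 moved to 0.40 on the muscle scale and Chrng to -0.02.

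Other nicotinic subunits were scarce. Of 12 further subunit genes, 4 were tested and none passed. Chrne, the epsilon subunit of the adult junction, stayed under the filter with 9, 6 and 2 reads in KO and 6, 6 and 7 reads in Ctrl replicates 1 to 3, so no difference was detectable at this depth. Chrna2, Chrna3, Chrna5 and Chrnb3 had no read in any library, which allows up to 0.224 to 0.329 RPM per library (3 reads, counting error only). Among the 4 tested, Chrna7, a neuronal subunit, was at 3.33 ± 0.522 RPM in KO and 4.47 ± 0.295 RPM in Ctrl samples (SD, n = 3 each, limma adjusted p = 0.201). It was the only 1 of the 4 without overlap between the groups, where 33.8% of all tested amplicons had none.

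The signal that organises the junction was measured in 14 genes of the agrin, neuregulin and MuSK pathway, of which 1 was lower in KO and none higher, with a list median of -0.03, where 11.0% of all tested amplicons were lower and 5.71% higher. With muscle fibre list scaling 2 were higher and none lower, where 18.4% of all tested amplicons were higher on that scale. The gene lower on the deposited scale was Dvl1, for a Dishevelled protein that binds MuSK. Dvl1 was at 27.2 ± 4.19 RPM in KO and 37.2 ± 1.54 RPM in Ctrl samples (SD, n = 3 each). Its log2 fold change was -0.45 ± 0.11 (SE, limma adjusted p = 0.00993). The agrin gene Agrn was at 35.3 ± 2.07 RPM in KO and 35.9 ± 2.54 RPM in Ctrl samples (SD, n = 3 each). The agrin receptor gene Lrp4, also expressed in bone cells, had a log2 fold change of 0.10 (limma adjusted p = 0.503, and 0.0431 relative to the muscle fibre list). The neuregulin receptor gene Erbb3 was at -0.28 (limma adjusted p = 0.180) and the ETS factor gene Etv5 at -0.03 (limma adjusted p = 0.875).

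Of 16 genes for the synaptic basal lamina and the scaffold under the receptors, 3 were lower in KO and none higher, with a list median of -0.17, beside 11.0% of all tested amplicons lower and 5.71% higher. With muscle fibre list scaling 2 were higher and 1 lower, where 18.4% of all tested amplicons were higher and 383 of 12846 lower. The 3 genes lower on the deposited scale were Dtna, Dag1 and Plec. Dtna, for alpha-dystrobrevin, was at -0.57 ± 0.12 (log2 fold change ± SE, limma adjusted p = 0.00181). The dystroglycan gene Dag1 was at -0.25 ± 0.07 (0.0261) and the plectin gene Plec at -0.28 ± 0.08 (0.0262). With TMM or median-of-ratios scaling, edgeR or DESeq2, 1 gene of this list passed, since Dag1 and Plec had adjusted p of 0.0666 to 0.114 there. Dag1 also missed the threshold without KO replicate 2 (limma adjusted p = 0.121) or Ctrl replicate 2 (0.140), and Plec without KO replicate 2 (0.0962), KO replicate 3 (0.0569), Ctrl replicate 1 (0.106) or Ctrl replicate 3 (0.0615). Dtna read 23.8 ± 0.777 RPM in KO and 36.2 ± 5.40 RPM in Ctrl samples (SD, n = 3 each). The acetylcholinesterase gene Ache was at 11.2 ± 0.542 RPM in KO and 13.5 ± 0.795 RPM in Ctrl samples (SD, n = 3 each, limma adjusted p = 0.208), with every KO library lower. Colq, for the collagen tail that anchors this enzyme, was at 0.02 and the utrophin gene Utrn at -0.03 on the log2 scale, and neither passed. Dag1 and Plec are expressed in many tissues beside muscle.

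Mutations in a set of protein glycosylation genes cause congenital myasthenia. Of 5 such genes 2 were lower in KO, where 11.0% of all tested amplicons were. Dpagt1, for the enzyme that begins the N-glycan precursor, was at 19.9 ± 1.02 RPM in KO and 33.8 ± 0.845 RPM in Ctrl samples (SD, n = 3 each), and the log2 fold change was -0.74 ± 0.11 (SE, limma adjusted p = 7.48e-05). Alg14 was at -0.30 (limma adjusted p = 0.0382), and it did not pass under TMM, median-of-ratios or quantile scaling, edgeR, DESeq2 or no filter on low values, where its adjusted p was 0.0574 to 0.115. It was also lost without any 1 of KO replicates 1, 2 and 3 and Ctrl replicates 1 and 2, with limma adjusted p of 0.0676, 0.0740, 0.0925, 0.134 and 0.133. Both are active in all cell types.

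Of 11 genes known to follow muscle activity or denervation, 2 were lower and none higher, with a median of -0.06, where 11.0% of all tested amplicons were lower. With 11 genes this count is not read as a result about the group. Runx1, a transcription factor gene induced by denervation and also expressed in skeletal progenitors, was at -0.66 ± 0.12, and the deacetylase gene Hdac9 at -0.61 ± 0.13 (log2 fold change ± SE, limma adjusted p = 6.64e-04 and 0.00198). The myogenic factor gene Myog was at 398 ± 12.2 RPM in KO and 455 ± 17.2 RPM in Ctrl samples (SD, n = 3 each), with a log2 fold change of -0.19 and limma adjusted p = 0.0674. It passed with quantile scaling (limma adjusted p = 0.0341). Myod1 (-0.11) and Ncam1 (-0.17), a cell adhesion gene of immature and denervated fibres, did not pass. Of 5 tested genes of muscle progenitors and fusion, Itga7 (-0.48) and Myf6 (-0.28) were lower and none was higher. Over all tested amplicons 11.0% were lower and 5.71% higher. The list median was -0.0014, and the fusion genes Mymk and Mymx had no amplicon. Myf5 was at 0.21, with every KO library above every Ctrl library, and did not pass (limma adjusted p = 0.135). Pax7 (0.06) and Cdh15 (-0.0014) did not pass either. Myf6 did not pass under TMM or median-of-ratios scaling, edgeR or DESeq2 (adjusted p of 0.0514 to 0.0647). Its call was also lost without KO replicate 2 (limma adjusted p = 0.0505), KO replicate 3 (0.0526) or Ctrl replicate 1 (0.0652).

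**Figure D4:**
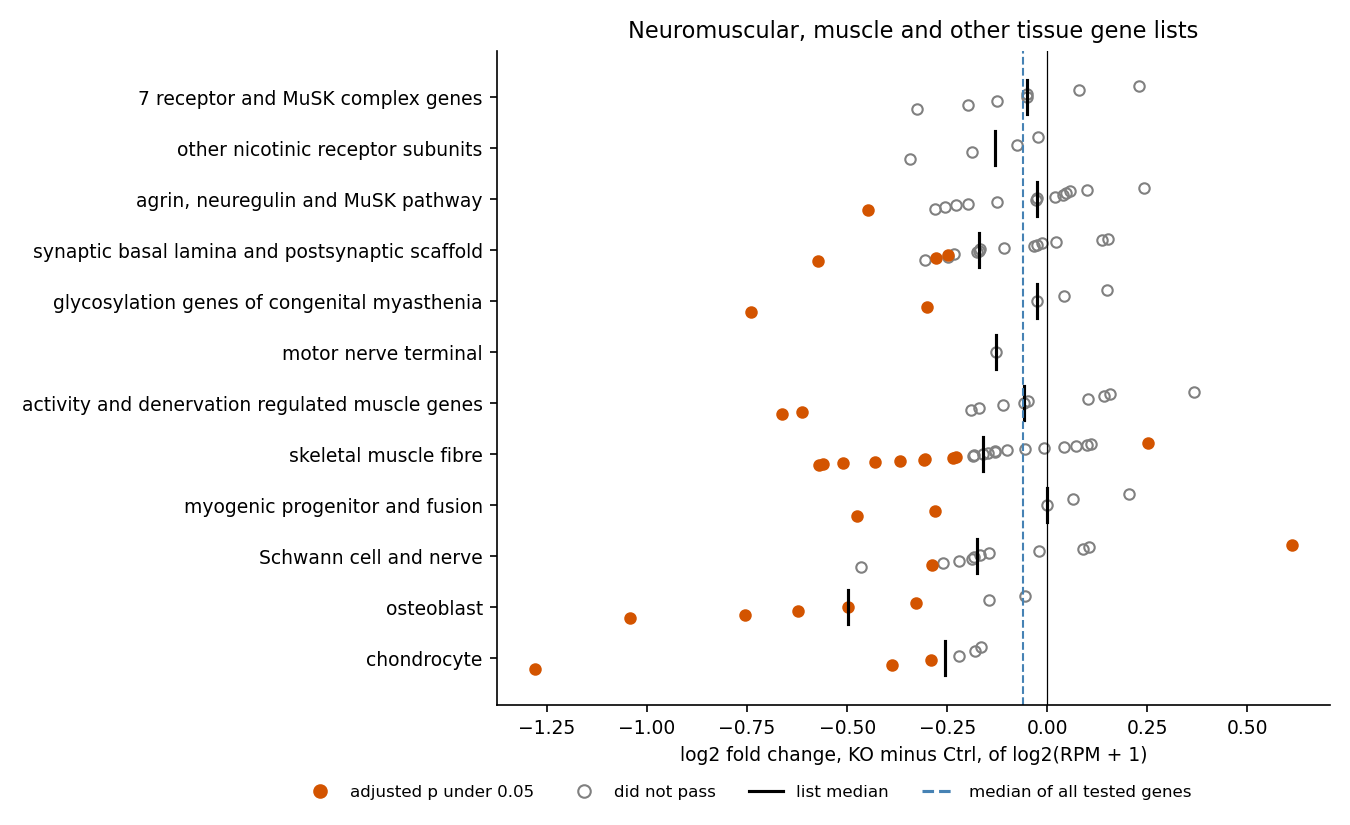
Log2 fold change, KO minus Ctrl, of every tested gene of each list (1 row of points per list), filled where limma's adjusted p was under 0.05, with the list median as a bar and the median of all tested amplicons as a dashed line. The 7 receptor and MuSK complex genes hold no filled point, and the skeletal muscle fibre list holds 9 filled points below 0 and 1 above.

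Nerve RNA was sparse in the shaft. Of 9 motor nerve terminal genes only the choline transporter gene Slc5a7 passed the filter, at 1.36 ± 0.467 RPM in KO and 1.54 ± 0.168 RPM in Ctrl samples (SD, n = 3 each), and Chat, the choline acetyltransferase of motor neurons, had no read in any library. Motor neuron cell bodies lie in the spinal cord. In the list of 12 Schwann cell and nerve genes, the neurofilament gene Nefl was higher in KO, at 17.5 ± 0.662 RPM against 11.1 ± 0.685 RPM in Ctrl samples (SD, n = 3 each, limma adjusted p = 0.00240), and the myelin gene Pmp22, which fibroblasts express too, was lower (-0.29, limma adjusted p = 0.00733, and 0.0624 without KO replicate 2). The median of this list was -0.18 and its summed RPM was 729 to 805 in KO and 907 to 929 in Ctrl samples, mostly Pmp22. In the osteoblast list 5 of 7 tested genes were lower and in the chondrocyte list 3 of 6, with none higher in either and medians of -0.50 and -0.25, where 11.0% of all tested amplicons were lower. The chondrocyte count of 3 was 1 with TMM, median-of-ratios, quantile or muscle fibre list scaling, with edgeR or DESeq2, and without KO replicate 2, Ctrl replicate 1 or Ctrl replicate 2.

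A set of 11 genes called lower in KO, namely Dvl1, Dag1, Plec, Alg14, Myf6, Pmp22, Myh3, Myot, Myl1, Des and Atp2a1, did not pass relative to the muscle fibre list (limma adjusted p of 0.0784 to 0.662). That scaling moves every gene up by 0.18, and Myh3, Myot, Myl1, Des and Atp2a1 are members of the list it sets equal, so losing modestly lower calls follows from its construction. The same 11 did not pass without limma's trend (adjusted p of 0.0549 to 0.186).

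The 7 genes did not share a profile over the 6 libraries. As a description over 6 libraries that share depth and tissue makeup, Pearson's r between pairs of the 7 ranged between -0.77 for Chrna1 with Dok7 and 0.92 for Chrng with Dok7, on log2(RPM + 1). Among 9011 other amplicons averaging 10 RPM or more, the 5 most like the mean of the 7 were Dcaf5, Plpp3, Hdac5, Aven and Lyst, with r of 0.991 to 0.988. None of these 5 passed the test between groups, with limma adjusted p between 0.0913 and 0.498. With 9011 amplicons ranked over 6 libraries, high r values arise from the selection, so they are no result about the 7 genes.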

How the data were processed

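Values were read from the authors' deposited table of RPM, with cDNA made by SuperScript VILO and libraries by the Ion AmpliSeq mouse transcriptome panel, per the labels' protocols. Each gene is read at 1 amplicon. No aligner, counter or genome build is given in the sources used here. All values (100%, tolerance 0.1 read) were whole multiples of a step per library, giving whole reads and depths, with 1 read worth 0.0748 to 0.110 RPM. The 6 columns were assigned by title. The main test was limma 3.58.1 in R 4.3.3 with a trend on log2(RPM + 1), for amplicons averaging 1 RPM or more, two-sided, adjusted by Benjamini-Hochberg over 12846 amplicons at 0.05. This scale understates fold changes of low genes. edgeR 4.0.16 and DESeq2 1.42.0 on recovered reads, other pseudocounts, filters and scalings, a replicate block and leaving out each library were alternatives, and limma was tested on simulated data. Libraries of the same group differed by more than counting noise (chi-square over its degrees of freedom 4.56 to 7.92), so none was merged. Members and lists were chosen with earlier results of these data known. Named genes were the 7, up to 6 genes per list that passed, and 17 set ones that include Agrn, Lrp4, Ache, Myog and Ttn. Some others, among them Chrna7, Slc5a7, Myf5, Pax7, Cdh15, Mylpf and Tnnt3, were named outside this rule. Bone and cartilage genes are given as counts. Positions are those of GENCODE M21.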

Additional observations from a re-analysis of the deposited data

How the results depend on the processing

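Over all genes 2142 amplicons were called, 733 higher and 1409 lower. The count was 1392 with no filter on low values, 995 without limma's trend and 1171 to 2029 when a library was left out. The split moved with the scaling, to 981 higher and 967 lower with TMM, 1065 and 895 with median-of-ratios, 979 and 877 with quantile, 2359 and 383 with muscle fibre list scaling, 1052 and 922 with edgeR and 998 and 775 with DESeq2. For the 7 genes the count of 0 became 1, Chrna1 each time, with median-of-ratios scaling (limma adjusted p = 0.0468), with muscle fibre list scaling and without Ctrl replicate 3, so it ranged between 0 and 1 over left-out libraries. Of 104 tested listed genes 30 were called, where 16.7% of all tested amplicons were. This count of 30 was 16 without the trend and 21 to 28 when a library was left out. Its split of 2 higher and 28 lower became 10 higher and 14 lower with muscle fibre list scaling. Relative to the muscle fibre list the count of 1 became 2, with Chrnb1 added, at a pseudocount of 10 RPM (limma adjusted p = 0.0367) and with the replicate block (limma adjusted p = 0.0474), and was 1 without each library. Libraries with the same replicate number had correlated deviations of 0.013, -0.019 and 0.107, not all over 0.1, so the numbers were not taken to pair them. With the block, 2462 amplicons and 0 of the 7 genes were called on the deposited scale.

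Some fold changes took the opposite sign, none of them past the threshold. With TMM scaling they were Agrn at 0.023, Utrn at 0.017 and Etv5 at 0.021. With median-of-ratios scaling they were Musk at 0.0060, Rapsn at 0.0077, Agrn at 0.034, Utrn at 0.028, Etv5 at 0.032 and Ckm at 0.0054. With quantile scaling they were Musk at 0.037, Rapsn at 0.046, Agrn at 0.056 and Etv5 at 0.027. With muscle fibre list scaling they were Chrnd at 0.050, Musk at 0.12, Rapsn at 0.13, Agrn at 0.15, Utrn at 0.14, Etv5 at 0.15, Myod1 at 0.066, Ncam1 at 0.0051, Acta1 at 0.045, Ckm at 0.12, Stat3 at 0.063 and Slc5a7 at 0.049. With edgeR they were Musk at 0.00085, Rapsn at 0.016, Agrn at 0.031, Utrn at 0.025 and Etv5 at 0.030. With DESeq2 they were Musk at 0.0077, Rapsn at 0.022, Agrn at 0.037, Utrn at 0.031, Etv5 at 0.036 and Ckm at 0.0056. When a library was left out, the log2 fold change ranged over -0.090 to 0.026 for Musk, over -0.12 to 0.075 for Rapsn, over -0.083 to 0.023 for Agrn, over -0.094 to 0.11 for Colq, over -0.095 to 0.014 for Utrn, over -0.060 to 0.032 for Etv5, over -0.22 to 0.050 for Slc5a7 and over -0.037 to 0.14 for Chrnd relative to the muscle fibre list. Muscle fibre list scaling adds 0.18 to every gene, so its changes of sign follow from its construction. With TMM and median-of-ratios scaling the genes also moved up together. The median of all tested amplicons went from -0.061 on the deposited scale to -0.015 with TMM and -0.0045 with median-of-ratios scaling. On the deposited scale Agrn was at -0.024, Utrn at -0.032, Etv5 at -0.027, Musk and Rapsn at -0.051 and Ckm at -0.055. Their changes of sign with these scalings came with that shared shift. The cause of those with quantile scaling, edgeR, DESeq2 or a library left out was not tested. The other 110 values of the 7 genes kept their sign and side of the threshold, and Chrna1 passed in 3. Depth limits Chrne and the nerve genes, which had few reads.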

Other observations

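Under the filter of 1 RPM, the synaptic vesicle gene Syp, chosen after its values were seen, had 4, 2 and 3 reads in KO replicates 1 to 3 and 19, 16 and 11 reads in Ctrl replicates 1 to 3, with no overlap. It was not part of the main test. The other listed motor nerve terminal genes overlapped between the groups or had no read. With no filter on low values, 1 of 8 tested genes of that list was lower and none higher, where 869 of 20490 amplicons were lower. How many amplicons under the filter did not overlap was not counted.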
